A study of Arabidopsis thaliana with 12 samples.

Results

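The starch pathway was followed through 38 genes of Arabidopsis thaliana, out of 37885 in the count table, in whole seedlings of 3 genotypes. The genes were listed by identifier for their roles in the pathway, with earlier results of these data known. Of these, 18 belong to starch synthesis in the plastid, running from the phosphoglucomutase PGM1 to the debranching enzyme PU1, and 20 belong to starch breakdown, running from the glucan, water dikinase GWD1 to the cytosolic glucan phosphorylase PHS2. All 38 matched a gene of the TAIR10.1 annotation, which was used for positions and lengths.

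The first genotype, prt6 erfVII (prt6-1erfvii in the labels), is described as combining prt6-1 with T-DNA insertion alleles of the 5 group VII ETHYLENE RESPONSE FACTOR genes (HRE1, HRE2, RAP2.2, RAP2.3 and RAP2.12). The second, prt6 (prt6-1), is labelled as mutated in PRT6, the E3 ligase that recognises substrates of the PRT6 N-degron pathway, and not in the 5 ERFVII genes. Col-0 is the wild-type accession. Seedlings of each genotype were 7 days old, grown on 1/2 MS agar without sucrose in continuous light and harvested untreated, with 4 biological replicates a genotype, and RNA came from total seedlings. The hour of harvest was not given in the sources used here.

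Starch is made in the plastid from glucose 6-phosphate. ADP-glucose pyrophosphorylase (AGPase) supplies the ADP-glucose, starch synthases and branching enzymes build amylopectin, the granule-bound starch synthase GBSS1 builds amylose, and debranching enzymes trim misplaced branches. In leaves most of this starch is stored by day and broken down at night, when dikinases phosphorylate the granule surface, phosphatases remove the phosphate again, beta-amylases release maltose, and the maltose leaves the plastid through MEX1. Transcripts of many of the breakdown enzymes are known to oscillate over the day under the control of the circadian clock. ERFVII transcription factors are best known as activators of the hypoxia response, and they are degraded through PRT6 when oxygen is present.

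Upstream sequence is shown for 7 members that differ in how their transcripts behaved, so that the region in front of them can be read beside the values that follow. Each run is the 250 bases before the annotated gene start, 5′ to 3′ on the strand of the gene, from the TAIR10.1 genome of RefSeq, with G-boxes (CACGTG, a palindrome read alike on both strands) in capitals. In each of the 7 no other annotated gene reaches into the run. The windows are chr4:18259297-18259546 (plus strand) for APL3, chr1:11923867-11924116 (minus) for GBSS1, chr2:15263961-15264210 (plus) for SBE2.1, chr4:12712826-12713075 (minus) for PGI1, chr3:11252557-11252806 (plus) for PHS1, chr5:6225706-6225955 (plus) for BAM9 and chr5:22551484-22551733 (plus) for BAM4. In the results below the first 5 were lower and the last 2 higher in prt6 erfVII than in each of the other genotypes.
APL3: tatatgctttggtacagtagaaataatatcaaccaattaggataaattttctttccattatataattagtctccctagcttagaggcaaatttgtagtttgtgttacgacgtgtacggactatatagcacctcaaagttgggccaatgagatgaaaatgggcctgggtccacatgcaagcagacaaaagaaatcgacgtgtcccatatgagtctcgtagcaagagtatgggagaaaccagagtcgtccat
GBSS1: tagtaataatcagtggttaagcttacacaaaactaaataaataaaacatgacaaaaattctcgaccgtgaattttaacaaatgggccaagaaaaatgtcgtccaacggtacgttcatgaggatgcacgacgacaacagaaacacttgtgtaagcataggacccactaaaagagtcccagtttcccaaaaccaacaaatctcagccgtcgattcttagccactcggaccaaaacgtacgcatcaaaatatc
SBE2.1: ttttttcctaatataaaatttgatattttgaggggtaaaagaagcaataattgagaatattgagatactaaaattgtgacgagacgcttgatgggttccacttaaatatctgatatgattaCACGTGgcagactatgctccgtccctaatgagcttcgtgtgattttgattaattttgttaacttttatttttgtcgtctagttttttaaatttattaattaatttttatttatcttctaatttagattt
PGI1: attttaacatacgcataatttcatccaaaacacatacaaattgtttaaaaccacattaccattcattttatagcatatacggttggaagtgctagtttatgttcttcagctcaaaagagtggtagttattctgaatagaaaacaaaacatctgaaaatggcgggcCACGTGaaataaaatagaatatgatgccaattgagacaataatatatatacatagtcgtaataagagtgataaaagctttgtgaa
PHS1: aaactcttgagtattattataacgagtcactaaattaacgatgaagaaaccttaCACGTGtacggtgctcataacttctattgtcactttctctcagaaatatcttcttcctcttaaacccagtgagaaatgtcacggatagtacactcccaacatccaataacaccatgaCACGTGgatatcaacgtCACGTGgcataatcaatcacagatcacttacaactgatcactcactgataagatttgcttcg
BAM9: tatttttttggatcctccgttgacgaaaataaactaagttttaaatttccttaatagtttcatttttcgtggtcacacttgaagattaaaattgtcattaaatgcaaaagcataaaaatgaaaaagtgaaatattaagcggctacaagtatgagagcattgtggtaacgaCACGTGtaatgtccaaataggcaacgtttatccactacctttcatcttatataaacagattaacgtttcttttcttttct
BAM4: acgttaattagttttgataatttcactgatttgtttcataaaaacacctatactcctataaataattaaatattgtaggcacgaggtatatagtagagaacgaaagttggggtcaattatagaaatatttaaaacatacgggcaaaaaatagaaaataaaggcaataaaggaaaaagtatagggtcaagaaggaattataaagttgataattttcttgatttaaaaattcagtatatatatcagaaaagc
The runs of APL3, GBSS1 and BAM4 hold no G-box. SBE2.1, PGI1 and BAM9 hold 1 each and PHS1 holds 3.

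Over the window that reaches from 250 bases before to 50 bases after the gene start, 6 of the 18 synthesis genes (33.3%) and 6 of the 20 breakdown genes (30.0%) held a G-box, against 7.68% of 27443 promoters of protein-coding genes of the same length. A further 2 motifs were searched on both strands. The evening element (AAAATATCT), known from clock-controlled promoters, was found in 2 synthesis genes (PGM1 and ISA3) and 3 breakdown genes (GWD1, PWD and DPE1), against 2.82% of all promoters. The hypoxia-responsive promoter element (HRPE), searched by exact matches to its degenerate consensus, had 0 matches among the members and 5 among all promoters. An exact match was so rare in this window that 0 among the members says little. The authors scanned a longer promoter region and the gene locus with another tool (FIMO). They report the element in many genes that differed between prt6 and prt6 erfVII. G-boxes were found in members of both directions: of the 12 members that held one, 2 were higher, 7 lower and 3 not called in prt6 erfVII relative to prt6, and of the 26 without one, 3 were higher, 11 lower, 10 not called and 2 not tested. A match describes the letters in the window and nothing more.

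Levels are given as CPM (counts relative to a library total scaled by TMM), and tests are edgeR's quasi-likelihood test on the raw counts with Benjamini-Hochberg adjustment over all genes, called at an adjusted p under 0.05. Where a pair of log2 fold changes of prt6 erfVII is given in brackets, the first is relative to prt6 and the second relative to Col-0. The libraries held between 23156637 and 30582461 counts on genes. The label check was mixed. RAP2.3 and HRE1 were nearly or fully without reads in prt6 erfVII (0.371 to 0.943 CPM for RAP2.3 and 0 counts for HRE1), while RAP2.2 and RAP2.12 kept reads (56.3 to 61.1 CPM for RAP2.2, against 105 to 114 CPM in prt6). Levels of RAP2.3 and HRE1 in the other genotypes, and those of HRE2, are not given here, so 0 counts alone do not check a label. PRT6 and the ERFVII genes summed to 117 to 123 CPM in prt6 erfVII, 326 to 363 CPM in prt6 and 336 to 365 CPM in Col-0. PRT6 itself had 9.06 ± 1.28 CPM in prt6 erfVII, 64.1 ± 14.3 CPM in the libraries labelled prt6 and 62.2 ± 4.14 CPM in Col-0 (mean ± SD, n = 4 each), so the count of PRT6 did not set the libraries labelled prt6 apart from Col-0 but did set them apart from prt6 erfVII, and whether both lines carry one and the same PRT6 allele was not tested. Whole seedlings mix organs, and in such bulk samples fewer cells of a type and less RNA per cell cannot be told apart.

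Among the genes called, most of both synthesis and breakdown were lower in prt6 erfVII. Relative to prt6, 9 of the 18 synthesis genes were lower, 2 were higher and 7 were not called, with a median log2 fold change of -0.21. Among the breakdown genes, 9 were lower, 3 were higher and 6 were not called, with a median of -0.31 over the 18 tested. Over all 20857 genes tested, 14.7% were called lower and 16.6% higher, with a median of 0.00. The other 2 breakdown genes, BAM5 (AT4G15210, a beta-amylase outside the plastid) and AMY1 (AT4G25000, a secreted alpha-amylase), did not reach the filter, with 0 to 6 and 0 to 18 counts per library.

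Relative to Col-0, too, most of the called members were lower. Of the synthesis genes, 12 were lower, 1 was higher and 5 were not called (median -0.22), and of the breakdown genes 8 were lower, 4 were higher and 6 were not called (median -0.19). Among all 20747 genes tested in this comparison 18.7% were lower and 18.5% higher (median -0.01). The libraries of prt6 erfVII enter both comparisons, which are therefore not independent of each other. A direction was shared by both for 8 synthesis genes that were lower and 1 that was higher, and for 8 breakdown genes that were lower and 3 that were higher. The share of all genes called alike in both was not computed, so this sharing cannot be read as particular to starch genes. Of the 23 members called against prt6, 7 exceeded a 1.5-fold change, as did 8 of the 25 called against Col-0. How many of all called genes exceeded that change was not computed.

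Between prt6 and Col-0 none of the 36 members tested was called by edgeR, where 1.09% of 20899 genes were called higher and 1.09% lower. At an unadjusted p under 0.05 there were 4 synthesis genes (APL1, APL3, SBE2.1, ISA3) and 4 breakdown genes (PWD, SEX4, DPE1, PHS2), and DESeq2 called 1 member, APL1, as lower in prt6 (log2 fold change -0.19, adjusted p = 0.0269). Log2 fold changes lay between -0.19 and 0.35 for synthesis genes and between -0.08 and 0.23 for breakdown genes. Leaving out prt6 replicate 4, whose counts differed most from those of its replicates, brought 2 synthesis genes (ISA3, SBE2.2) and 2 breakdown genes (PWD, PHS2) past the threshold, each higher in prt6, with adjusted p-values between 0.0128 and 0.0369.

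**Figure D1:**
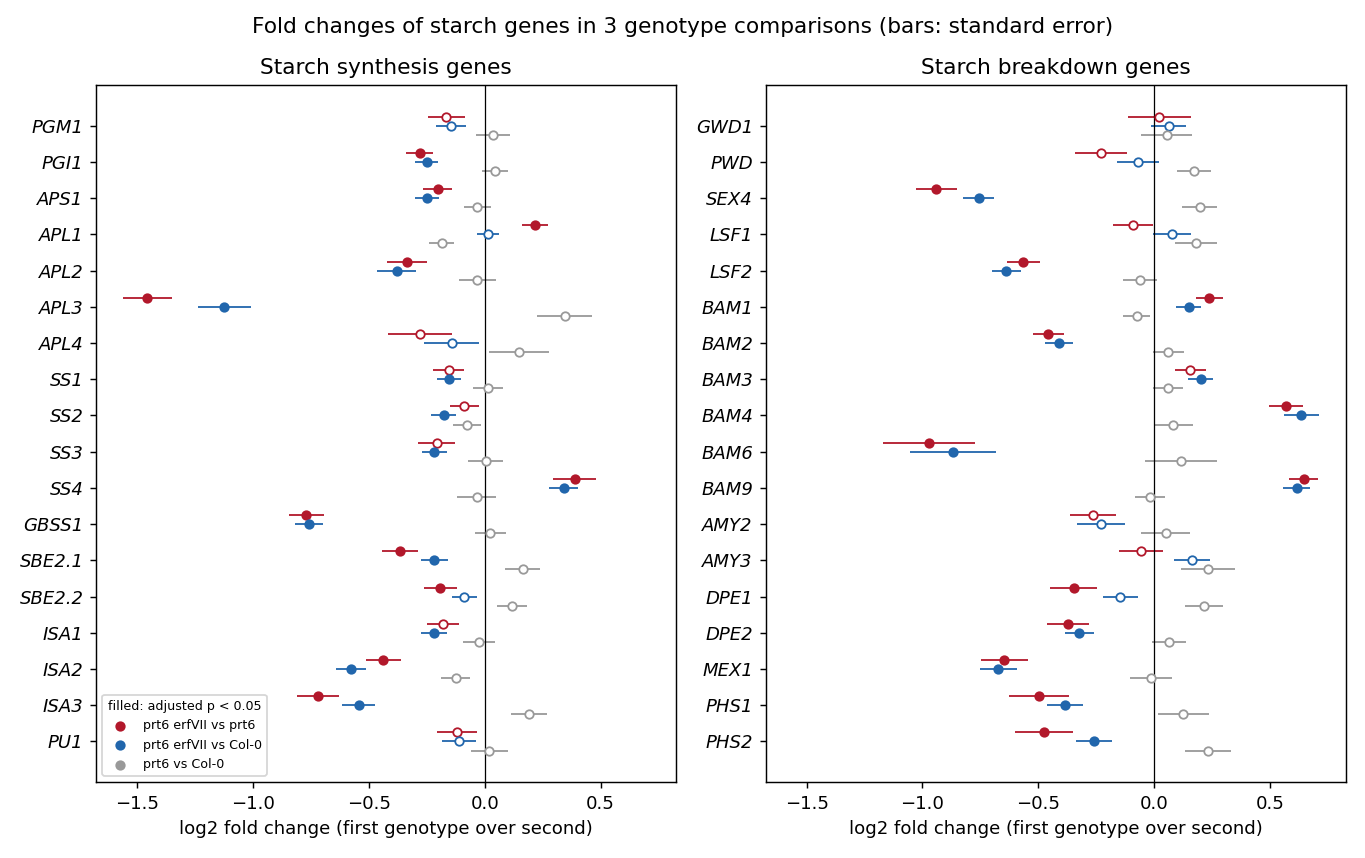
Log2 fold change of each starch gene tested (x axis, first genotype over second) with its standard error, synthesis genes on the left and breakdown genes on the right. Filled points have an adjusted p under 0.05, red for prt6 erfVII vs prt6, blue for prt6 erfVII vs Col-0 and grey for prt6 vs Col-0. Most filled points lie left of 0, SS4, BAM1, BAM3, BAM4, BAM9 and APL1 lie right of it, and no grey point is filled.

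At the entry into the pathway PGI1 was lower and PGM1 was not called. PGM1 (AT5G51820), the plastid phosphoglucomutase, was not called (-0.17 relative to prt6 and -0.15 relative to Col-0 on the log2 scale), with 128 to 157 CPM in prt6 erfVII, 139 to 172 CPM in prt6 and 141 to 166 CPM in Col-0. Without prt6 erfVII replicate 1, PGM1 passed as lower relative to prt6 (adjusted p = 0.0332) and relative to Col-0 (0.00617), and it also passed relative to Col-0 without Col-0 replicate 4 (0.0497) and with a replicate block (0.00949). PGI1 (AT4G24620), the plastid phosphoglucose isomerase that links it to the Calvin cycle, had 158 to 171 CPM in prt6 erfVII, 188 to 210.0 CPM in prt6 and 188 to 202 CPM in Col-0, with no overlap between prt6 erfVII and the rest. Its log2 fold change was -0.28 (SE 0.059, adjusted p = 0.00134) relative to prt6 and -0.25 (SE 0.050, adjusted p = 3.25e-04) relative to Col-0.

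AGPase, a tetramer of small and large subunits, takes the first committed step. The catalytic small subunit APS1 (AT5G48300) and the large subunit APL1 (AT5G19220), the main one of leaves, were the most abundant synthesis transcripts per length. APS1 had 412, 371, 373 and 377 CPM in the 4 prt6 erfVII libraries, against 433, 479, 454 and 413 CPM in prt6 and 469, 469.8, 447 and 435 CPM in Col-0. All prt6 erfVII values lay below all others though the highest of them, replicate 1, came close to the lowest prt6 library, replicate 4. APS1 fell by 1.15-fold relative to prt6 and 1.19-fold relative to Col-0, with log2 fold changes of -0.20 (SE 0.062, adjusted p = 0.0177) and -0.25 (SE 0.051, adjusted p = 4.77e-04). The call against prt6 was lost without prt6 erfVII replicate 2 (adjusted p = 0.0548) and without prt6 replicate 2 (0.0793).

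APL1 went the other way in one comparison only. It had 298, 290.1, 288 and 295 CPM in prt6 erfVII, 251, 269, 256 and 240.1 CPM in prt6 and 281, 286, 301 and 289 CPM in Col-0. The prt6 libraries were the low ones, below every library of prt6 erfVII and Col-0, which overlapped each other. APL1 was higher in prt6 erfVII than in prt6, with a log2 fold change of 0.22 (SE 0.057, adjusted p = 0.00677), and did not pass the test relative to Col-0 (log2 fold change 0.02, SE 0.048, adjusted p = 0.82). A noncoding gene of 43 to 111 counts per library lies inside APL1 on the opposite strand. Per length, the ratio of APL1 to APS1 was 0.838 ± 0.0299 in prt6 erfVII, 0.627 ± 0.0115 in prt6 and 0.698 ± 0.0412 in Col-0 (mean ± SD, n = 4 each).

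The minor large subunits included the largest change of all members. APL3 (AT4G39210, chr4:18259547-18263468 on the plus strand), a large subunit known from sink tissue and from its response to sugar, had 10.6, 10.8, 8.57 and 9.08 CPM in prt6 erfVII, against 27.7, 31.6, 22.5 and 26.2 CPM in prt6 and 24.2, 21.9, 16.2 and 22.6 CPM in Col-0. Every prt6 erfVII library was below every other library. APL3 fell by 2.74-fold relative to prt6 and 2.18-fold relative to Col-0, with log2 fold changes of -1.46 (SE 0.11, adjusted p = 1.08e-08) and -1.12 (SE 0.11, adjusted p = 7.41e-08). The difference of prt6 from Col-0 did not pass (log2 fold change 0.35, SE 0.12, adjusted p = 0.201). APL2 (AT1G27680) was lower in prt6 erfVII in both comparisons (-0.33 and -0.38), at 14.1 to 17.8 CPM, against 18.8 to 20.9 CPM in prt6 and 18.8 to 22.4 CPM in Col-0, and APL4 (AT2G21590), the least abundant member of the family, was called in neither (-0.28 and -0.14). Within AGPase, APL3 made up 1.20% ± 0.121 of the summed level per length in prt6 erfVII, 3.16% ± 0.373 in prt6 and 2.35% ± 0.388 in Col-0 (mean ± SD, n = 4 each), whereas APL1 made up 43.9% ± 0.875 in prt6 erfVII, 36.1% ± 0.375 in prt6 and 38.9% ± 1.43 in Col-0.

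**Figure D2:**
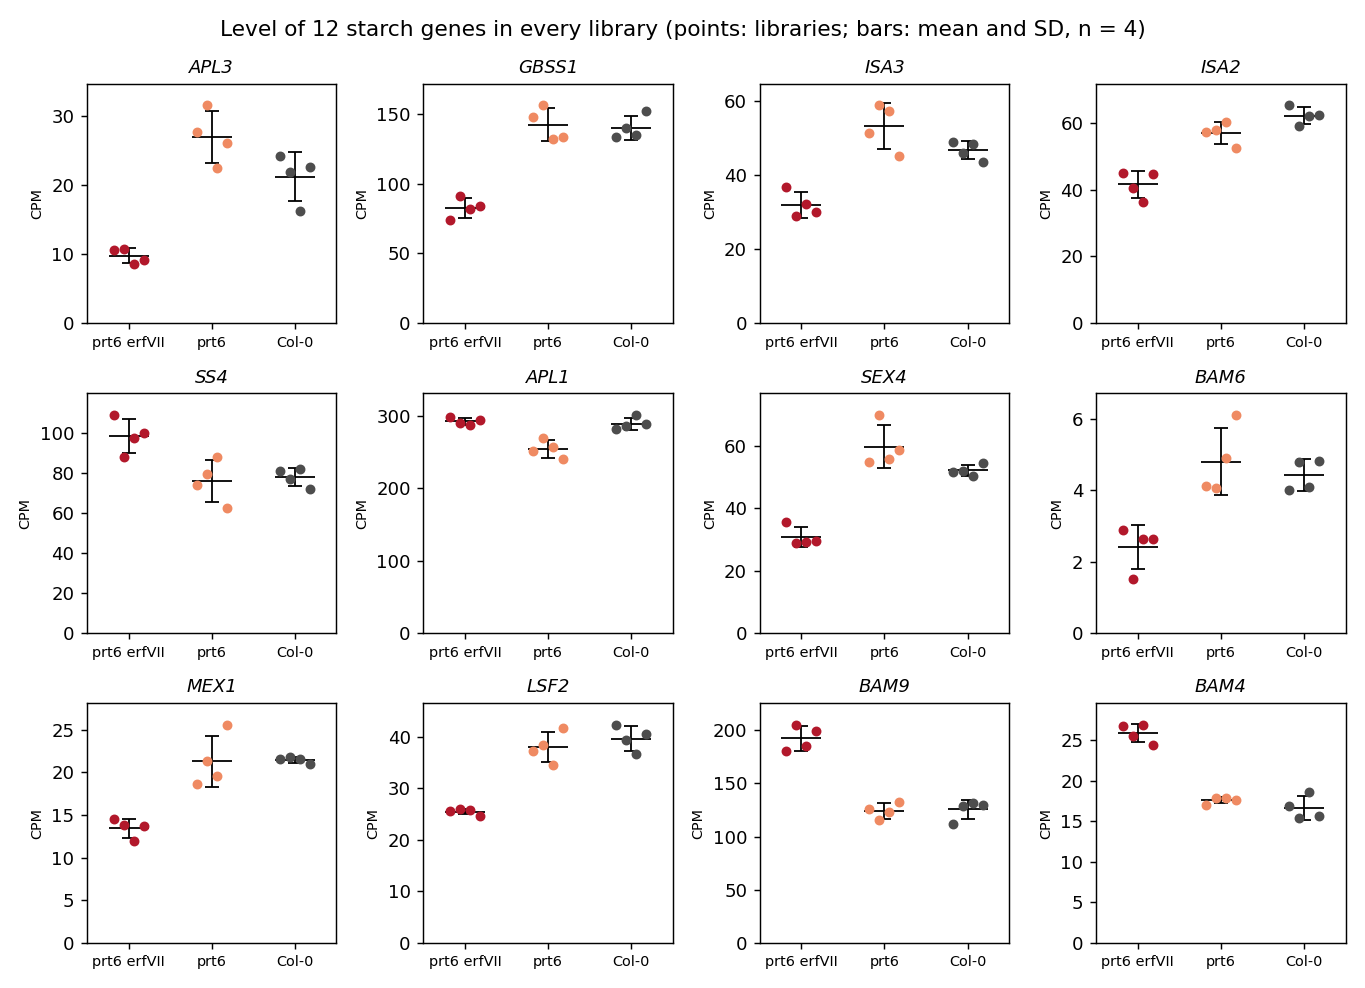
Level of 12 starch genes in every library (y axis, TMM-scaled CPM from 0), one point a library, with the mean and SD of 4 libraries as bars, in prt6 erfVII, prt6 and Col-0. The prt6 erfVII points lie apart from the others in 11 panels, below them in 8 and above them in SS4, BAM9 and BAM4, and in the APL1 panel the prt6 points are the low ones.

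Among the starch synthases, which elongate the glucan chains, GBSS1 fell and SS4 rose. GBSS1 (AT1G32900, chr1:11920390-11923866 on the minus strand), the enzyme of amylose synthesis, had 74.1, 91.2, 81.7 and 84.1 CPM in prt6 erfVII, against 148, 156, 132 and 133 CPM in prt6 and 133, 139.9, 134 and 152 CPM in Col-0. The highest prt6 erfVII library, replicate 2, was still well below the lowest of the rest. GBSS1 fell by 1.70-fold relative to prt6 and 1.69-fold relative to Col-0, with log2 fold changes of -0.77 (SE 0.074, adjusted p = 3.02e-07) and -0.76 (SE 0.062, adjusted p = 1.27e-09). GBSS1 is among the genes whose transcripts are known to cycle with the clock.

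SS4 (AT4G18240, chr4:10082108-10087203 on the plus strand), the synthase that starts granules, had 109, 87.7, 97.5 and 99.7 CPM in prt6 erfVII, against 73.6, 79.3, 87.6 and 62.4 CPM in prt6 and 80.7, 76.7, 81.7 and 71.6 CPM in Col-0. Its lowest prt6 erfVII library, replicate 2, was only just above the highest prt6 library, replicate 3, and above every Col-0 library. SS4 was the only synthesis gene that rose in both comparisons, with log2 fold changes of 0.39 (SE 0.092, adjusted p = 0.00385) and 0.34 (SE 0.062, adjusted p = 1.31e-04). The chain-elongating synthases SS1 (AT5G24300), SS2 (AT3G01180) and SS3 (AT1G11720) were lower in prt6 erfVII than in Col-0 by small margins (-0.15, -0.18 and -0.22). The call of SS1 was lost in 3 of 8 fits without 1 library, those without prt6 erfVII replicate 3, Col-0 replicate 1 or Col-0 replicate 2 (highest adjusted p = 0.0942). None of these 3 passed relative to prt6 (-0.16, -0.09 and -0.21).

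Shares within the synthases were also computed, as a description with no test. GBSS1 made up 25.3% ± 2.23 of the summed level per length of the 5 synthases in prt6 erfVII, against 36.2% ± 2.05 in prt6 and 35.6% ± 1.86 in Col-0. SS4 made up 20.3% ± 1.69 in prt6 erfVII, 13% ± 1.30 in prt6 and 13.4% ± 0.985 in Col-0, and its ratio to SS3 per length was 1.67 ± 0.110 in prt6 erfVII, 1.11 ± 0.0986 in prt6 and 1.14 ± 0.0858 in Col-0 (mean ± SD, n = 4 each). The level of GBSS1 per length was below that of SS1 in prt6 erfVII, with a ratio of 0.803 ± 0.0763, and above it in prt6 (1.23 ± 0.0954) and Col-0 (1.22 ± 0.10).

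Of the branching enzymes, which create the branch points of amylopectin, SBE2.1 was lower in both comparisons. SBE2.1 (AT2G36390) had 88.5, 76.7, 78.3 and 80.7 CPM in prt6 erfVII, 94.4, 120.2, 110.4 and 96.3 CPM in prt6 and 98.4, 95.0, 85.2 and 98.1 CPM in Col-0. The prt6 erfVII libraries did not overlap with prt6, but replicate 1 lay above 1 Col-0 library. SBE2.1 fell in both comparisons, with log2 fold changes of -0.37 (SE 0.079, adjusted p = 0.0015) relative to prt6 and -0.22 (SE 0.059, adjusted p = 0.00561) relative to Col-0. Its partner SBE2.2 (AT5G03650), the more abundant of the pair, just passed relative to prt6 (log2 fold change -0.19, SE 0.070, adjusted p = 0.0468), and this call was lost in 7 of the 8 fits that left out 1 library, with the call kept only without prt6 replicate 4. Relative to Col-0 it was not called (log2 fold change -0.09, SE 0.052, adjusted p = 0.202) and the groups overlapped. SBE2.2 lies 449 kb from PRT6, nearer to a mutated gene than any other member.

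Debranching enzymes remove branches either during synthesis (ISA1 and ISA2, which act as a complex) or, as is known for ISA3 and PU1, mainly during breakdown. ISA3 (AT4G09020, chr4:5783909-5789100 on the plus strand) had 36.8, 28.8, 32.2 and 30.1 CPM in prt6 erfVII, against 51.4, 58.7, 57.2 and 45.2 CPM in prt6 and 48.8, 45.8, 48.4 and 43.6 CPM in Col-0. Every prt6 erfVII library was below every other library, and prt6 replicate 4 lay within the range of Col-0. ISA3 fell by 1.65-fold relative to prt6 and 1.46-fold relative to Col-0, with log2 fold changes of -0.72 (SE 0.092, adjusted p = 8.94e-06) and -0.54 (SE 0.070, adjusted p = 1.51e-06). PU1 (AT5G04360) was called in neither comparison (-0.12 and -0.11). Counting ISA3 and PU1 with breakdown, a choice made after the values were seen, gave 8 of 16 synthesis genes lower and 2 higher relative to prt6, and 10 of 20 breakdown genes lower and 3 higher.

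ISA2 (AT1G03310, chr1:813413-816812 on the plus strand), the noncatalytic subunit, had 45.1, 40.6, 36.3 and 44.6 CPM in prt6 erfVII, against 57.2, 58.0, 60.1 and 52.3 CPM in prt6 and 65.2, 59.1, 61.9 and 62.5 CPM in Col-0. All 4 prt6 erfVII libraries were below the rest. ISA2 fell with log2 fold changes of -0.44 (SE 0.077, adjusted p = 2.49e-04) relative to prt6 and -0.58 (SE 0.064, adjusted p = 1.78e-07) relative to Col-0. Its catalytic partner ISA1 (AT2G39930) passed relative to Col-0 only, at -0.22, and stood at -0.18 relative to prt6 (adjusted p = 0.0534). The ratio of ISA2 to ISA1 per length was 0.931 ± 0.0597 in prt6 erfVII, 1.11 ± 0.0310 in prt6 and 1.20 ± 0.0459 in Col-0.

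**Figure D3:**
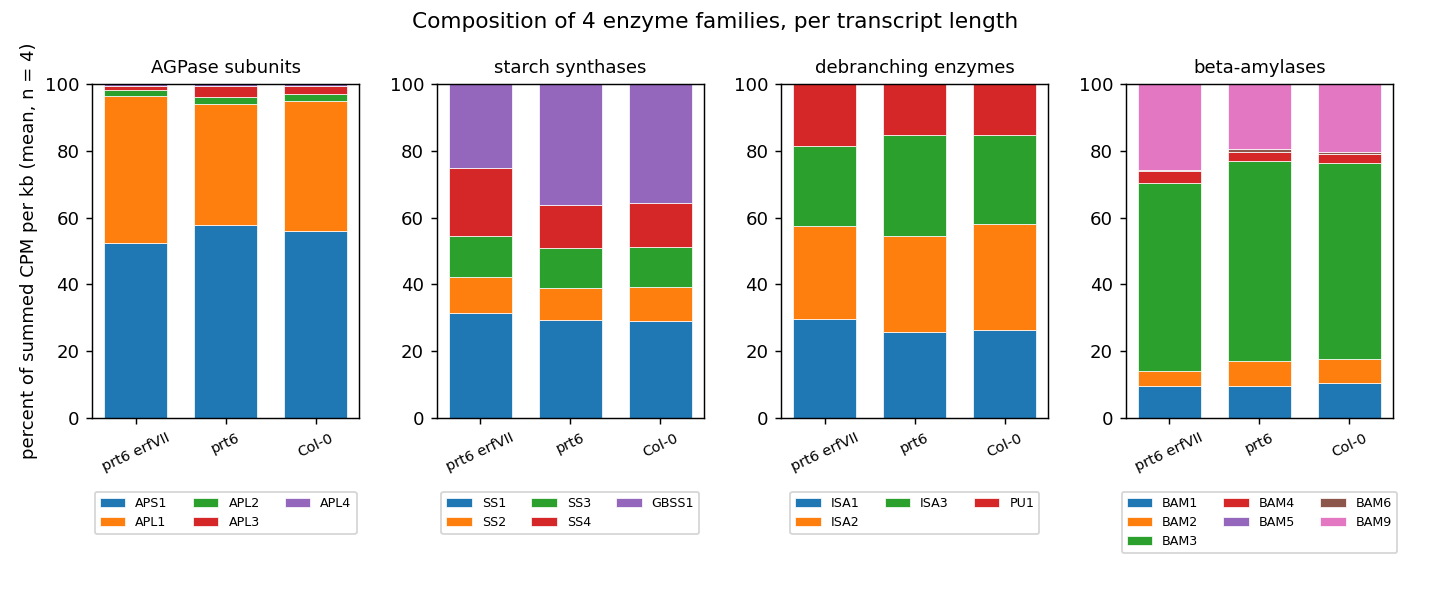
Mean share of each member in the summed level per length (y axis, percent of CPM per kb, n = 4 libraries) of the AGPase subunits, starch synthases, debranching enzymes and beta-amylases, in prt6 erfVII, prt6 and Col-0. GBSS1 takes 25.3% of the synthase total in prt6 erfVII, 36.2% in prt6 and 35.6% in Col-0, and BAM9 takes 25.9% of the beta-amylase total in prt6 erfVII, 19.7% in prt6 and 20.3% in Col-0.

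Breakdown begins with phosphorylation of the granule surface, which phosphatases then reverse. The dikinases GWD1 (AT1G10760) and PWD (AT5G26570) were called in no comparison. GWD1 had 191 to 265 CPM in prt6 erfVII, 172 to 261 CPM in prt6 and 205 to 229.9 CPM in Col-0, ranges that overlapped widely. PWD stood at -0.23 relative to prt6 and -0.07 relative to Col-0 on the log2 scale. Without prt6 erfVII replicate 1, the high library of its genotype, PWD passed as lower in both, at -0.36 (adjusted p = 0.00385) relative to prt6 and -0.19 (adjusted p = 0.00749) relative to Col-0.

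SEX4 (AT3G52180, chr3:19349600-19353728 on the minus strand), the main phosphoglucan phosphatase, had 35.7, 28.9, 29.4 and 29.6 CPM in prt6 erfVII, against 54.9, 69.9, 55.7 and 58.6 CPM in prt6 and 51.7, 52.0, 50.5 and 54.6 CPM in Col-0. The gap between prt6 erfVII and the other libraries was wide, although prt6 erfVII replicate 1 stood above its 3 replicates. SEX4 fell by 1.92-fold relative to prt6 and 1.69-fold relative to Col-0, with log2 fold changes of -0.94 (SE 0.088, adjusted p = 2.32e-07) and -0.76 (SE 0.067, adjusted p = 4.14e-09). Per length, SEX4 stood at 0.347 ± 0.0258 of the level of GWD1 in prt6 erfVII, 0.686 ± 0.126 in prt6 and 0.611 ± 0.0514 in Col-0 (mean ± SD, n = 4 each).

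LSF2 (AT3G10940, chr3:3422034-3423455 on the minus strand), a second phosphatase of the granule surface, had 25.6, 25.9, 25.9 and 24.7 CPM in prt6 erfVII, against 37.4, 38.3, 34.6 and 41.8 CPM in prt6 and 42.3, 39.4, 36.6 and 40.5 CPM in Col-0. Its prt6 erfVII libraries were close together and all below the others. LSF2 fell with log2 fold changes of -0.56 (SE 0.073, adjusted p = 9.23e-06) relative to prt6 and -0.64 (SE 0.063, adjusted p = 2.72e-08) relative to Col-0. LSF1 (AT3G01510), a relative without phosphatase activity that helps to dock beta-amylases, was called in neither comparison (-0.09 and 0.08). LSF1 shares 343 bases on the same strand with a gene of 66378 to 83612 counts per library, so its own level is uncertain.

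Of the beta-amylases, BAM1, BAM4 and BAM9 were higher and BAM2 and BAM6 lower in both comparisons. BAM9 (AT5G18670, chr5:6225956-6228195 on the plus strand), which has no catalytic activity, was the second most abundant breakdown transcript per length. It had 180.5, 205, 185 and 199.6 CPM in prt6 erfVII, against 126, 115, 123 and 132 CPM in prt6 and 112, 129, 132 and 129.7 CPM in Col-0. All prt6 erfVII libraries were above all others. BAM9 rose by 1.56-fold relative to prt6 and 1.53-fold relative to Col-0, with log2 fold changes of 0.65 (SE 0.064, adjusted p = 3.91e-07) and 0.62 (SE 0.059, adjusted p = 1.89e-08).

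BAM4 (AT5G55700, chr5:22551734-22554964 on the plus strand), likewise inactive and known to promote starch breakdown, had 26.7, 25.6, 26.9 and 24.5 CPM in prt6 erfVII, against 17, 17.9, 17.8 and 17.7 CPM in prt6 and 16.9, 15.5, 18.6 and 15.7 CPM in Col-0. It too was higher in every prt6 erfVII library than in any other. BAM4 rose by 1.48-fold relative to prt6 and 1.55-fold relative to Col-0, with log2 fold changes of 0.57 (SE 0.073, adjusted p = 9.34e-06) and 0.64 (SE 0.076, adjusted p = 5.15e-07). Of the active plastid enzymes, BAM1 (AT3G23920), known from guard cells and stress, was slightly higher (0.24 and 0.15), and its call relative to Col-0 was lost in 4 of 8 fits without 1 library, those without prt6 erfVII replicate 3 or 4 or Col-0 replicate 1 or 2 (highest adjusted p = 0.0927).

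BAM3 (AT4G17090), the main beta-amylase of leaves and the most abundant breakdown transcript per length, had 469, 419, 442 and 434 CPM in prt6 erfVII, 360.1, 441, 408 and 386 CPM in prt6 and 415, 363, 367 and 389.7 CPM in Col-0. The prt6 erfVII libraries overlapped with prt6 and lay above those of Col-0. BAM3 was higher relative to Col-0, with a log2 fold change of 0.20 (SE 0.054, adjusted p = 0.00516), and did not pass relative to prt6 (log2 fold change 0.16, SE 0.066, adjusted p = 0.0819). BAM2 (AT4G00490), a plastid enzyme of the same family, was lower (-0.46 and -0.41), at 33.6 to 36.4 CPM in prt6 erfVII, 45.0 to 50.4 CPM in prt6 and 44.0 to 51.1 CPM in Col-0.

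BAM6 (AT2G32290), a low-abundance beta-amylase, had 2.89, 1.5, 2.62 and 2.64 CPM in prt6 erfVII, against 4.13, 4.07, 4.91 and 6.10 CPM in prt6 and 4.01, 4.81, 4.09 and 4.82 CPM in Col-0. These values rest on 35 to 79 counts per library in prt6 erfVII, 102 to 165 in prt6 and 92 to 122 in Col-0, and prt6 erfVII did not overlap with prt6 or Col-0, which overlapped each other. BAM6 fell with log2 fold changes of -0.97 (SE 0.20, adjusted p = 9.86e-04) relative to prt6 and -0.87 (SE 0.19, adjusted p = 7.21e-04) relative to Col-0. The change cannot be assigned to BAM6 alone, since AT2G32280 overlaps it by 693 bases on the opposite strand and was also lower (log2 fold change -0.75, adjusted p = 0.00117, relative to prt6 and -0.60, adjusted p = 0.00326, relative to Col-0), and the strand setting of the counting was not given in the sources used here.

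Over the family, BAM9 made up 25.9% ± 1.92 of the summed beta-amylase level per length in prt6 erfVII, against 19.7% ± 1.79 in prt6 and 20.3% ± 1.87 in Col-0. BAM2 made up 4.59% ± 0.0996 in prt6 erfVII, 7.48% ± 0.211 in prt6 and 7.32% ± 0.399 in Col-0. BAM3 held the largest share in each genotype, at 56.1% ± 1.79 in prt6 erfVII, 59.6% ± 2.52 in prt6 and 58.5% ± 2.24 in Col-0. The alpha-amylases, which cut inside the glucan chains, were not called, with AMY3 (AT1G69830) of the plastid at -0.06 and 0.16 and the cytosolic AMY2 (AT1G76130) at -0.26 and -0.23 relative to prt6 and Col-0.

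Downstream of the amylases, most transcripts were lower. MEX1 (AT5G17520, chr5:5772568-5775417 on the minus strand), the maltose exporter of the plastid envelope, had 14.5, 13.8, 11.9 and 13.7 CPM in prt6 erfVII, against 18.7, 21.3, 19.6 and 25.6 CPM in prt6 and 21.5, 21.9, 21.5 and 21 CPM in Col-0. Its highest prt6 erfVII library was below the lowest of the rest. MEX1 fell by 1.57-fold relative to prt6 and 1.59-fold relative to Col-0, with log2 fold changes of -0.65 (SE 0.10, adjusted p = 7.88e-05) and -0.67 (SE 0.079, adjusted p = 4.01e-07).

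DPE2 (AT2G40840), the cytosolic enzyme that processes the exported maltose, fell in both comparisons (-0.37 and -0.32), with 109 to 137 CPM in prt6 erfVII, 131 to 175 CPM in prt6 and 143 to 155 CPM in Col-0. DPE1 (AT5G64860), the disproportionating enzyme of the plastid, fell relative to prt6 only (-0.35), and this call was lost without prt6 replicate 2 (adjusted p = 0.0554). Relative to Col-0 it stood at -0.15 (adjusted p = 0.134), and passed as lower without prt6 erfVII replicate 1 (-0.25, adjusted p = 0.00446).

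The glucan phosphorylases PHS1 (AT3G29320) of the plastid and PHS2 (AT3G46970) of the cytosol fell together, PHS1 at -0.50 and -0.39 and PHS2 at -0.48 and -0.26 relative to prt6 and Col-0. PHS1 had 183, 142, 135 and 151 CPM in prt6 erfVII, 199.6, 257, 239 and 174 CPM in prt6 and 209.7, 211, 194 and 183 CPM in Col-0. PHS2 had 176, 128, 141 and 139 CPM in prt6 erfVII, 185, 238, 228 and 168 CPM in prt6 and 186, 178, 172 and 162 CPM in Col-0. In each gene prt6 erfVII replicate 1 was the high library of its genotype and overlapped with prt6 and Col-0. Without prt6 erfVII replicate 3 the call of PHS2 was lost relative to prt6 (adjusted p = 0.0536) and relative to Col-0 (0.0614), and it was also lost relative to Col-0 without Col-0 replicate 1 (0.0521).

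**Figure D4:**
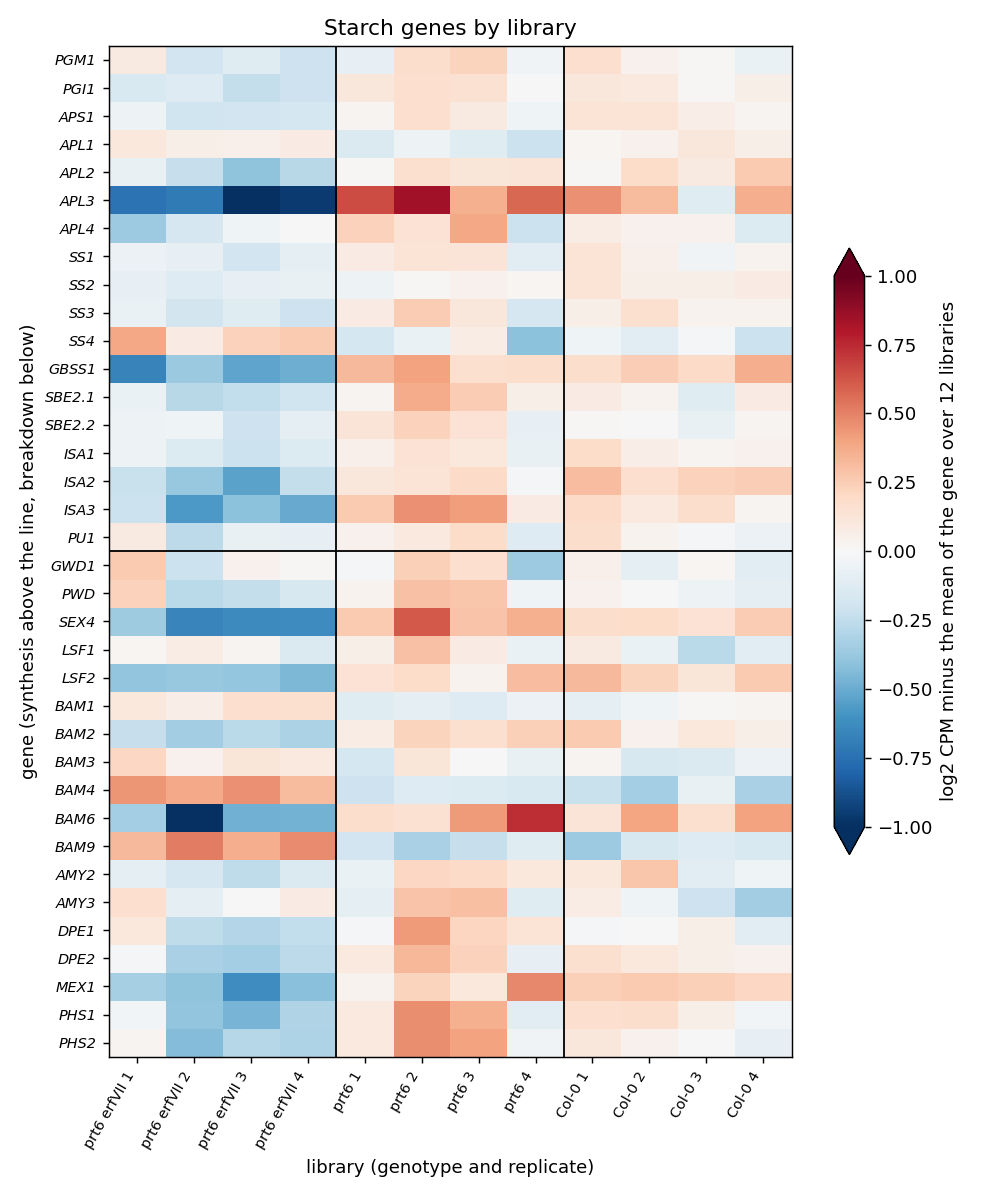
Log2 CPM of the 36 starch genes tested (rows) in the 12 libraries (columns), minus the mean of each gene, with colours capped at -1 and 1. Synthesis genes stand above the line and breakdown genes below it. The 4 prt6 erfVII columns are blue for most genes and red for SS4, BAM4 and BAM9, and prt6 erfVII replicate 1 is paler or redder than its replicates for PWD, DPE1, DPE2, PHS1 and PHS2.

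Some libraries were high or low of their genotype for many members. Replicate 1 of prt6 erfVII had the highest level of its genotype in 12 of the 18 synthesis genes and 13 of the 18 breakdown genes tested. Replicate 2 of prt6 was the highest of its genotype in 12 synthesis and 11 breakdown genes, and replicate 4 of prt6 the lowest in 12 and 7. In Col-0, replicate 1 was the highest in 11 synthesis and 9 breakdown genes. Such counts were taken over the members only and not over all genes, so they cannot be read as particular to starch genes. Among all genes called, the libraries of the 2 genotypes did not overlap for 85.5% relative to prt6 and 83.8% relative to Col-0, so a called gene mostly shows no overlap. Among the members the groups did not overlap in 10 of 11 synthesis and 8 of 12 breakdown genes called relative to prt6 (the exceptions were SBE2.2, DPE1, DPE2, PHS1 and PHS2), and in 12 of 13 and 10 of 12 called relative to Col-0 (the exceptions were SBE2.1, PHS1 and PHS2). Without prt6 replicate 4, 13 synthesis genes were lower relative to prt6, against 7 without prt6 erfVII replicate 2 or without prt6 replicate 2. Over the fits that left out 1 library, 19 of the 23 calls relative to prt6 and 22 of the 25 relative to Col-0 held in every fit. In at least 1 such fit, 8 members not called relative to prt6 passed (PGM1, APL4, SS1, SS3, ISA1, PWD, BAM3 and AMY2), as did 5 relative to Col-0 (PGM1, PWD, DPE1, AMY2 and AMY3).

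Summed per length, the 18 synthesis genes reached 749 to 811 CPM per kb in prt6 erfVII, 805 to 937 in prt6 and 870.0 to 905 in Col-0. The 20 breakdown genes summed to 665 to 759 in prt6 erfVII, 686 to 811 in prt6 and 681 to 726 in Col-0. The sum of synthesis was thus below Col-0 in every prt6 erfVII library but overlapped with prt6. The sums of breakdown overlapped with both Col-0 and prt6. BAM3 and BAM9, the most abundant breakdown genes per length, were not lower. The ratio of the synthesis to the breakdown sum was 1.07 to 1.14 in prt6 erfVII, 1.16 to 1.25 in prt6 and 1.25 to 1.29 in Col-0, which is a description over sums and was given no test. These sums count ISA3 and PU1 with synthesis. The ratio with both counted as breakdown was not computed, so the narrow gap between prt6 erfVII and prt6 is not shown to hold under that choice.

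**Figure D5:**
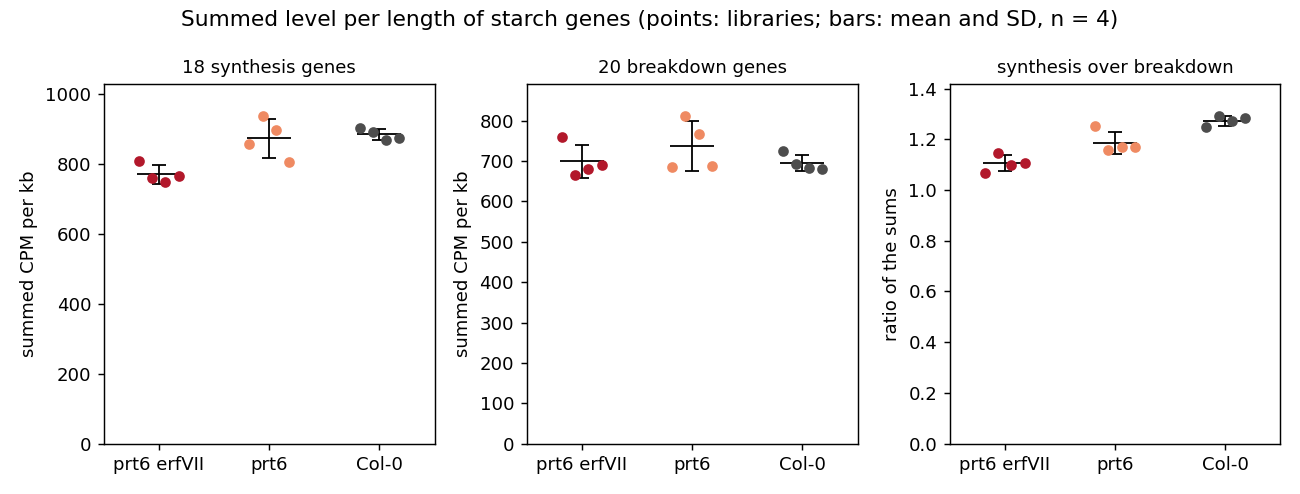
Summed level per length (y axis, CPM per kb, from 0) of the 18 synthesis genes and the 20 breakdown genes, and the ratio of the sums, one point a library with the mean and SD of 4 libraries as bars, in prt6 erfVII, prt6 and Col-0. With ISA3 and PU1 counted as synthesis, the ratio reaches at most 1.14 in prt6 erfVII and at least 1.16 in prt6 and 1.25 in Col-0.

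Another 22 genes around the pathway, among them granule initiation factors, hexose phosphate and ATP carriers and cytosolic isoforms, were read in the same fits. Relative to prt6, 2 were higher, 6 lower and 14 not called in prt6 erfVII (median log2 fold change -0.03), so that 36.4% were called, against 31.3% of all genes tested. Relative to Col-0, 2 were higher, 6 lower and 13 not called of the 21 tested (median -0.07), or 38.1% called, against 37.2% of all genes. Those higher in both were MRC (AT4G32190), a granule initiation factor (0.34 and 0.18), and NTT2 (AT1G15500), a plastid ATP carrier (0.42 and 0.52). Lower in both were GWD2 (AT4G24450), LESV (AT3G55760), GPT1 (AT5G54800), the hexokinase HXK1 (AT4G29130) and the cytosolic phosphoglucomutase PGM3 (AT1G23190), while MFP1 (AT3G16000), a thylakoid protein of granule initiation, was lower relative to Col-0 only (-0.21). GWD2 is a cytosolic dikinase known from the phloem, LESV a starch-binding protein and GPT1 a glucose 6-phosphate carrier of the plastid. GWD2 had 5.12, 4.12, 4.90 and 4.74 CPM in prt6 erfVII, against 13, 13.1, 10.2 and 9.28 CPM in prt6 and 8.89, 11.9, 9.93 and 11.5 CPM in Col-0, with log2 fold changes of -1.26 (SE 0.14, adjusted p = 1.15e-06) relative to prt6 and -1.16 (SE 0.12, adjusted p = 9.26e-08) relative to Col-0.

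GPT2 (AT1G61800), the sugar-inducible glucose 6-phosphate carrier, was the only gene of either list called between prt6 and Col-0, where 1 of the 22 was higher in prt6 and 0 lower. It had 3 to 7 counts per library in prt6 erfVII, 36 to 74 in prt6 and 10 to 21 in Col-0. The 3 genotypes did not overlap, with prt6 the highest. Its log2 fold change was -3.18 (SE 0.39, adjusted p = 5.63e-06) for prt6 erfVII relative to prt6 and 1.5 (SE 0.34, adjusted p = 0.0197) for prt6 relative to Col-0, and it was below the filter in the comparison of prt6 erfVII with Col-0.

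Insertion lines can differ from the wild type near the mutated genes. Within 2000 kb of PRT6 or an ERFVII gene lie 5 members (SBE2.2, PU1, LSF2, AMY2 and AMY3), of which 2 were called relative to prt6, and of the 31 tested members farther away 5 were higher and 16 lower. Relative to Col-0, 1 of the 5 near members was called, and 5 were higher and 19 lower among the rest.

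Markers of organs and cell types were read beside the starch genes. Relative to prt6, 3 of 5 green-tissue markers were higher in prt6 erfVII and 0 lower, and relative to Col-0 0 were higher and 1 was lower. In prt6 relative to Col-0, 3 of these 5 were lower (LHCB1.1 at -0.44, LHCB2.1 at -0.42 and RBCS3B at -0.22). Their summed level was 24743 to 28781 CPM in prt6 erfVII, 23471 to 26461 CPM in prt6 and 26179 to 28247 CPM in Col-0. Of 6 root markers, COBL9 and EXPA7, which mark root hairs, were lower in prt6 erfVII in both comparisons (-1.12 and -0.98 relative to prt6), PYK10, which dominates the sum, was higher (0.26 relative to prt6), IRT1 was higher relative to Col-0 (0.39 in prt6 erfVII and 0.30 in prt6), and the summed level was 5467 to 6234 CPM, against 4730 to 5251 CPM in prt6 and 4520 to 5193 CPM in Col-0. Of 2 root cap markers, whose columella cells hold starch, 0 were called in any comparison, and their sum was 1.29 to 2.14 CPM in prt6 erfVII, 1.84 to 2.1 CPM in prt6 and 0.784 to 1.66 CPM in Col-0. The phloem marker SEOR1 was lower (-0.48 and -0.50), with 0 other calls among the 3 phloem markers. Of 2 flower markers, PI was the 1 tested, and it was higher in prt6 erfVII (0.56 and 2.75) and in prt6 relative to Col-0 (2.2). The summed seed storage markers reached 50.9 CPM in prt6 erfVII replicate 1, against 0.343 to 7.13 CPM in its replicates. They ran from 1.80 to 20.4 CPM in prt6 and from 0.0788 to 39.0 CPM in Col-0. That library, prt6 replicate 2 (20.4 CPM) and Col-0 replicate 1 (9.85 CPM) were high for many starch genes. By contrast, prt6 replicate 4 (19.5 CPM) and Col-0 replicate 3 (39.0 CPM) were the lowest of their genotype in 12 and 8 synthesis genes. The part of these differences in the values of the starch genes was not tested.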

How the data were processed

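RNA-seq of poly(A)-selected RNA from total seedlings (7 days old) of 3 genotypes gave 12 libraries, 4 biological replicates each. The authors trimmed the reads, aligned them to TAIR10 (HISAT2 2.1.0), took the unique and correct alignments to featureCounts 1.6.0 for counting by gene, and deposited these raw counts without normalization for 37885 genes. Reads shared by near-identical copies were lost in that step, and the strand setting was not given in the sources used here. The libraries were prepared with a directional kit. Groups came from the genotype labels. Depth was 23156637 to 30582461 counts on genes per library. The replicates are described as biological, and replicates within a genotype differed beyond sampling noise (chi-square per degree of freedom 3.88 to 15.1 over 18 pairs), so none was merged.

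For each pair of genotypes, edgeR 4.0.16 in R 4.3.3 was run on the 8 libraries of that pair (TMM, filterByExpr, robust quasi-likelihood test, Benjamini-Hochberg over all genes tested, adjusted p under 0.05). Log2 fold changes are the first genotype over the second, with SE computed from the F statistic. CPM values are counts over the TMM-scaled library total of the 12 libraries, and per kb values divide by the exon length of the gene in TAIR10.1, in which 37882 identifiers matched. The spread among replicates was larger than counting error. The 38 members and the lists of other pathway genes, organ markers and mutated genes were chosen with earlier results of these data known. Values in every library are given for the called members with the largest change (6 per class relative to prt6, 3 per class relative to Col-0) and the 2 most abundant per length of each class, and also for PHS1 and PHS2, chosen after their values were seen. Other called members are named with their fold change, or their range.

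The fits were checked on simulated counts with 200 genes changed by 2-fold. For prt6 erfVII against prt6 (20713 genes), edgeR recovered 179 with 9 false calls. It recovered 184 with 9 for prt6 erfVII against Col-0 (20602 genes) and 182 with 13 for prt6 against Col-0 (20773 genes). Smaller changes were not simulated, nor changes in as many genes as were called here, so these figures do not cover the calls of smaller change. Alternatives were DESeq2 1.42.0, RLE size factors, no filter, a filter at a mean of 10 counts, all 12 libraries in a single fit, a replicate block, adjusted p under 0.01, a fold change above 1.5, each library left out in turn and, added after seeing the data, ISA3 and PU1 counted as breakdown. Figures were drawn in Python 3.11.15 with matplotlib 3.10.9.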

Additional observations from a re-analysis of the deposited data

Results flagged for a closer look

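In 5 of 108 groups of 4 libraries (36 genes in 3 genotypes), 1 library stood apart from the other 3 by Dixon's ratio of the gap to the range (95% level), where chance gives about 1 group in 20. In prt6 erfVII replicate 1 this was so for DPE1 (42.7 CPM against 32.4 to 33.4 CPM in the other 3, ratio 0.904), SEX4 (35.7 CPM against 28.9 to 29.6 CPM, 0.899) and APS1 (412 CPM against 371 to 377 CPM, 0.850). In Col-0, BAM9 was low in replicate 1 (112 CPM against 129 to 132 CPM, 0.845) and APL4 was low in replicate 4 (6.56 CPM against 7.44 to 7.58 CPM, 0.858). Without prt6 erfVII replicate 1, SEX4 had an adjusted p of 2.07e-07 relative to prt6 and 2.68e-10 relative to Col-0 in edgeR's test, and DPE1 had 0.00143 relative to prt6 and passed relative to Col-0 as well (0.00446).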

How the results depend on the processing

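The counts of members called moved by at most 1.5 times under RLE size factors, no filter and a filter at a mean of 10 counts. The same held for all 12 libraries in a single fit, an adjusted p under 0.01 and the class change of ISA3 and PU1. With a fold change above 1.5 required, relative to prt6 0 synthesis genes were higher and 3 lower, and 1 breakdown gene was higher and 3 lower. Relative to Col-0 under that rule, 0 synthesis genes were higher and 2 lower, and 2 breakdown genes were higher and 4 lower. How many of all called genes exceeded 1.5-fold was not computed, so no count above 1.5-fold given here can be read as particular to starch genes. DESeq2 called 1 synthesis gene (APL1) lower in prt6 than in Col-0, where edgeR called 0. Leaving out each library in turn gave 7 to 13 synthesis genes lower and 2 higher, and 8 to 10 breakdown genes lower and 3 to 4 higher, relative to prt6. Relative to Col-0 the ranges were 11 to 13 lower and 1 higher for synthesis, and 7 to 10 lower and 3 to 4 higher for breakdown. For prt6 relative to Col-0 they were 0 to 2 higher and 0 lower in each class, with 2 only without prt6 replicate 4. A single fit over all 12 libraries lost the calls of SS1 (adjusted p = 0.0566) and PHS2 (0.0970) relative to Col-0. Of the members not called relative to prt6, SS3, ISA1 and AMY2 passed under RLE size factors and in the single fit, SS1 in the single fit (0.0379), ISA1 with DESeq2 (0.0438) and SS3 with no filter (0.0365). No direction of a called gene reversed in any alternative, 39 of 48 calls of single genes held at an adjusted p under 0.01, and 15 of 48 exceeded 1.5-fold. The causes were not tested.

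Correlations of same-numbered libraries ran from -0.08 to 0.16, and 2 of 12 were over 0.1. A library correlated best with its own number in 5 of 24 checks. Those 2 correlations and all 5 matches fell in the comparison of prt6 erfVII with Col-0, which like the others was also fitted with a replicate block. The comparisons with prt6 showed no pairing by replicate number. With the replicate block, 1 synthesis gene, APL3, was called higher in prt6 than in Col-0 (adjusted p = 0.0255, 0 without the block), the call of SBE2.2 relative to prt6 was lost (adjusted p = 0.0799), and no other call of a named gene was lost. PGM1 (lower, 0.00949) and AMY3 (higher, 0.0377) passed relative to Col-0 with the block. BAM5 and AMY1 had too few counts to pass the filter and were not tested in the main fits. With 1 library left out, AMY1 passed the filter in 7 fits of prt6 erfVII and 5 of prt6 relative to Col-0. It was called in 0 of them.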
